A study of Mus musculus with 12 samples.

Results

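The histone lysine demethylase genes Kdm6a, Kdm6b, Kdm1a, Kdm5a, Kdm5b, Kdm2a, Kdm2b, Kdm4a, Kdm4b and Kdm4c were followed through a chromatin accessibility data set of mouse T cells. The 10 genes were taken by name as members of an enzyme family, with earlier results of these data known. A peak (a region of open chromatin) was given to one of them when its nearest protein-coding gene model within 100 kb was that gene's. In all, 38 of 48443 peaks belonged to the 10 genes, and 36 of the 38 had enough counts to be tested. Accessibility was measured by ATAC-seq, in which the transposase Tn5 inserts adapters into open DNA, so the values describe open chromatin at these genes and not their RNA or protein.

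The cells were CD4+ T cells from the spleens of wild-type C57BL/6 mice. Naive cells (CD44-CD62L+CD25-) were sorted and activated for 68 hours on plates coated with anti-CD3 and anti-CD28 (each at 1 µg/ml). The Th17n cultures, Th17 cells of the non-pathogenic kind, received IL-6 (25 ng/ml) and TGF-beta1 (2 ng/ml), and the iTreg cultures, induced regulatory T cells, received TGF-beta1 alone (2 ng/ml). DFMO (difluoromethylornithine), which blocks ornithine decarboxylase and so the first step of polyamine synthesis, was given at 100 µM or replaced by vehicle. The 4 groups were Th17n with DFMO, Th17n with vehicle, iTreg with DFMO and iTreg with vehicle. Each held 1 culture from each of 3 animals, numbered 1, 2 and 3, so each group is cells differentiated in vitro. The main tests used 1 estimate of the spread within groups, shared by the 4 groups of 3. A comparison of 2 groups thus rests in part on libraries of the other groups.

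Histone lysine demethylases remove methyl groups from lysines of the histone tails. Kdm1a (LSD1) is an FAD-dependent amine oxidase, whereas the other members are JmjC enzymes that use iron, oxygen and 2-oxoglutarate. Kdm6a (UTX) and Kdm6b (JMJD3) act on the Polycomb mark H3K27me3, Kdm1a and the Kdm5 enzymes on methylated H3K4, and the Kdm4 enzymes on methylated H3K9 and H3K36. Kdm2a and Kdm2b act on H3K36 and bind unmethylated CpG islands through a CXXC zinc finger, and Kdm2b carries a Polycomb repressive complex (PRC1.1) to them.

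Total counts per library lay between 1020937 and 6496550, and the shallowest was Th17n with vehicle, animal 1. The summed CPM of the 6 CD4 T cell genes with a peak was 656 to 706, 728 to 787, 538 to 569 and 584 to 629.9 in Th17n with DFMO, Th17n with vehicle, iTreg with DFMO and iTreg with vehicle, where CPM are counts scaled to a library total of 1000000. Peaks were found at all 5 Th17 marker genes. Their summed CPM were 357 to 424 in Th17n with DFMO, 516 to 570.1 in Th17n with vehicle, 127 to 185 in iTreg with DFMO and 201 to 254 in iTreg with vehicle. The sum over 6 Treg genes was 1076 to 1141, 1341 to 1425, 1098 to 1279 and 1361 to 1433 CPM in the same order of groups. Peaks were present at 4 of 7 CD8 and NK cell genes (none at Cd8a, Ncr1 or Gzma), with sums of 139 to 169.6, 143 to 187, 195 to 216 and 178 to 208 CPM. They were present at 3 of 7 B cell genes (among those without one were Cd79a, Cd79b and Ms4a1), with sums of 261 to 277, 239 to 274, 144 to 172 and 139.6 to 202 CPM. All 7 myeloid genes had a peak, with sums of 102 to 126, 106 to 125, 103 to 113 and 86.8 to 108 CPM. The Th17 and CD4 sums were lower with DFMO and higher in Th17n cells, without overlap. The Treg sums were lower with DFMO in both lineages, again without overlap, but the lineages overlapped in them under both treatments. The B cell sums were higher in Th17n cells under both treatments, and the CD8 and NK cell sums were lower there with DFMO. The part of these lists in the demethylase results was not tested. In such bulk libraries, fewer cells with a region open and a region less open in each cell cannot be told apart.

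The peaks were spread unevenly over the 10 genes. Kdm2b held 14 peaks, Kdm6a and Kdm2a 4 each, Kdm6b, Kdm1a and Kdm4b 3 each, Kdm4a, Kdm4c and Kdm5a 2 each and Kdm5b 1. Peaks are numbered here along the chromosome within each gene. The 2 without a test were Kdm6a peak 3 (chrX:18191085-18191335), at 0 to 4.27 CPM, and Kdm2a peak 3 (chr19:4383246-4383444), at 0 to 6.74 CPM. The member peak farthest from its gene model, Kdm4c peak 1, lay 10776 bp away, so no member was near the 100 kb limit. Kdm2a peak 4 was equally near to 9430078G10Rik, Kdm5a peak 1 to Ccdc77 and Kdm5b peak 1 to Mgat4e, so these 3 peaks cannot be credited to a single gene.

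RefSeq promoter windows (build GRCm38.p6, that of the peak table) were at hand for 6 of the 10 genes and matched 10 start sites, of which 8 lay in or touched a member peak with at least 1 base. The 250 bases before the start are printed for start sites whose peaks carry the results below, 5′ to 3′ on the gene's strand, with each GC box (GGGCGG on either strand, overlapping matches included) in capitals. The first pair are the start sites of Kdm2b whose peaks were less open with DFMO in iTreg cells, and Kdm4c is the start whose peak was more open there. Kdm4a, Kdm6a and Kdm1a are shown as start sites whose peaks differed between the lineages, Kdm4a under both treatments, Kdm6a with DFMO only and Kdm1a with vehicle only. The outer Kdm2b window had 213 of its 250 bases in peak 12, and the start itself lay 38 bp from that peak. The Kdm1a window had 223 of its 250 bases in peak 3. The other printed windows lay wholly in their peaks.
Kdm2b internal start (chr5:122900368-122900617, minus strand, in peak 3): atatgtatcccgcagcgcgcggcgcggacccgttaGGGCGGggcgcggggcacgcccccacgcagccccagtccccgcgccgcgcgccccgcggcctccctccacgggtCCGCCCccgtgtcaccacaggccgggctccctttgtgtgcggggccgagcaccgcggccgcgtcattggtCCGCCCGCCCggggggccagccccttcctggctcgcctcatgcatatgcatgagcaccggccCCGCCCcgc
Kdm2b outer start (chr5:122989100-122989349, minus strand, in peak 12): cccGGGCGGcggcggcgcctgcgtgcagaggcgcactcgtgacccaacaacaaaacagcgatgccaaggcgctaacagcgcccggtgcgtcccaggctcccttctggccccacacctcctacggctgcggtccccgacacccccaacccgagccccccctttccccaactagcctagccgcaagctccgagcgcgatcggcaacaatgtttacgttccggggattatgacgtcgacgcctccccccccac
Kdm4c (chr4:74251629-74251878, plus strand, in peak 2): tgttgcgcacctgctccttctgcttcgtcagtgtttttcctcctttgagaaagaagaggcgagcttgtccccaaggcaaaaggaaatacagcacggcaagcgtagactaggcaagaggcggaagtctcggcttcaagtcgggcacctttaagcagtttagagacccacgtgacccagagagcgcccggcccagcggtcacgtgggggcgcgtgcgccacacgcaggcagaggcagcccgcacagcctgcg
Kdm6a (chrX:18162325-18162574, plus strand, in peak 1): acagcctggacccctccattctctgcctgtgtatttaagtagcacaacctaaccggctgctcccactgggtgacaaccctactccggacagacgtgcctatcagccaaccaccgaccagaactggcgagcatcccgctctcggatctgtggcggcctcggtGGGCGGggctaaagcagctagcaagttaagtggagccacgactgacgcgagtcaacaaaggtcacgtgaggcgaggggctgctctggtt
Kdm1a (chr4:136602724-136602973, minus strand, in peak 3): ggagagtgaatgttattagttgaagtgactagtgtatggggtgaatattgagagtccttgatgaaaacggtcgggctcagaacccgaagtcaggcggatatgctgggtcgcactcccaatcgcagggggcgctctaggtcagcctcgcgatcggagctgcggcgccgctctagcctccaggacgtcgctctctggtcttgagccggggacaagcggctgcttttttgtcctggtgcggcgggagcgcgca
Kdm4a (chr4:118180044-118180293, minus strand, in peak 2): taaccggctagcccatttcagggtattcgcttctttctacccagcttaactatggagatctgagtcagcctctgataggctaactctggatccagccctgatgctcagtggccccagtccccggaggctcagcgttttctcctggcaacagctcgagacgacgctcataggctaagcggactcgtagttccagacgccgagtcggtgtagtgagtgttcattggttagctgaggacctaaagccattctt

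The internal Kdm2b window had 36 CpG sites, 5 GC boxes and 78.0% G or C, and the outer window 27 CpG sites, 1 GC box and 68.0%. Kdm4c had 19 CpG sites, Kdm6a 15, Kdm1a 21 and Kdm4a 12. All 6 were above the median of 6 CpG sites over 32851 mouse windows of the same length, whose median G or C content was 52.4%. A GC box occurred in 32.7% of those windows, so its presence in 3 of the 6 printed here (and not in Kdm4c, Kdm1a or Kdm4a) is a description only. The outer Kdm2b window also held a CRE (TGACGTC, in 2.78% of all windows), the internal Kdm2b, Kdm1a and Kdm4a windows each held a CCAAT box (CCAAT, in 33.8%), and the Kdm4a window held an AP-1 motif (TGANTCA, in 6.75%), all searched on either strand. The CRE lay in the bases nearest the outer Kdm2b start, outside peak 12. A match is not a site, and no factor was measured.

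The lead peak of each gene (the one with the highest mean CPM over the 12 libraries) was compared per length, as mean CPM per kb over all libraries. Kdm4b peak 1 was the most open at 211 CPM per kb, followed by Kdm4a peak 2 at 179. Kdm6b peak 2 stood at 71.6, Kdm6a peak 1 at 66.5, Kdm4c peak 2 at 57.0 and Kdm2b peak 3 at 50.6. Kdm2a peak 4 (45.9), Kdm1a peak 3 (45.3) and Kdm5a peak 1 (43.7) were close together, and Kdm5b peak 1 was the least open at 28.6 CPM per kb. Of the 10 lead peaks, 7 lay within 1 kb of an end of the gene model and 3 lay farther inside it (Kdm6b peak 2, Kdm2b peak 3, Kdm4c peak 2).

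**Figure D1:**
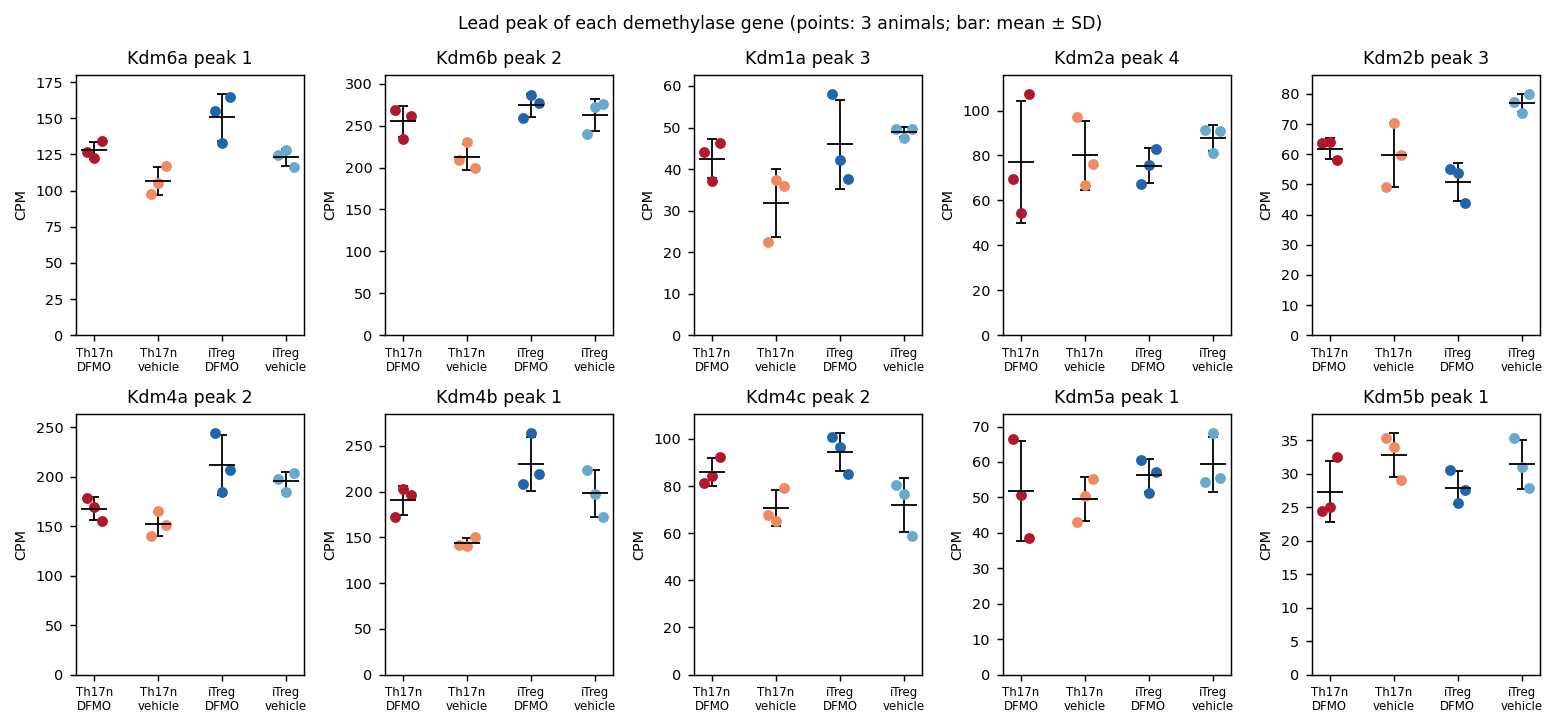
CPM of the lead peak of each of the 10 genes in Th17n with DFMO, Th17n with vehicle, iTreg with DFMO and iTreg with vehicle, 1 point per animal, with the mean and SD of 3 animals as the bar. Kdm4b peak 1 in Th17n cells and Kdm2b peak 3 in iTreg cells are the clearest separations by treatment: 172 to 202 CPM with DFMO against 140.4 to 150.3 CPM with vehicle, and 43.7 to 55.2 against 73.7 to 79.9 CPM.

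DFMO was compared with vehicle first in Th17n cells. Few demethylase peaks differed: a region at an end of the Kdm4b gene model was more open with DFMO, and a small region inside Kdm6a was less open. By edgeR's quasi-likelihood test with Benjamini-Hochberg adjustment over all peaks (threshold 0.05), 1 of the 36 peaks was higher, 1 was lower and 34 did not pass. Over all 43726 peaks tested, 8.79% passed, 4.5% higher and 4.29% lower, so 2 of 36 is near the background. The median log2 fold change was 0.06 over the 36 peaks and 0.01 over all peaks.

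Among the H3K27 demethylases, Kdm6a peak 2 (chrX:18177610-18178048, inside the gene) had 2.27, 0.433 and 0 CPM in Th17n cells with DFMO (animals 1, 2 and 3), against 3.92, 5.70 and 5.58 CPM with vehicle. All DFMO libraries were below all vehicle libraries, at counts of 7, 1 and 0 against 4, 37 and 19. The log2 fold change was -2.20 ± 0.65 (SE; edgeR adjusted p = 0.025). The call was lost without Th17n DFMO animal 2 or 3 or without vehicle animal 2 or 3 (adjusted p up to 0.109), and over all 12 omissions of a single library the fitted log2 fold change lay between -4.19 and -1.86. The Kdm6a promoter peak 1 (chrX:18161842-18163752) had 127, 122 and 134 CPM with DFMO, against 97.9, 106 and 117 CPM with vehicle. Those groups did not overlap, but the difference did not pass (log2 0.27 ± 0.12, edgeR adjusted p = 0.16).

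Kdm6b had no peak past the threshold in this comparison. Its lead peak 2 (chr11:69408616-69412122, inside the gene) had 269, 235 and 262 CPM with DFMO, against 209, 230.0 and 199 CPM with vehicle. The DFMO libraries were all higher, by a margin of a few CPM between the nearest libraries, at log2 0.28 ± 0.10 (edgeR adjusted p = 0.066). Peaks 1 and 3 had log2 values of 0.41 ± 0.24 and -0.18 ± 0.15 (edgeR adjusted p = 0.32 and 0.50).

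Of the H3K9 and H3K36 demethylases, Kdm4b peak 1 (chr17:56325449-56326351, at an end of the gene model) had 172, 202 and 197 CPM in Th17n cells with DFMO, against 142, 140.4 and 150.3 CPM with vehicle. Every DFMO library was above every vehicle library, with means of 190.4 ± 16.1 and 144 ± 5.34 CPM (SD, n = 3 each). It rose by log2 0.42 ± 0.11 (edgeR adjusted p = 0.012). The call was lost without Th17n DFMO animal 2 or 3 or any 1 of the 3 Th17n vehicle animals (adjusted p up to 0.148; log2 0.33 to 0.44 over all single omissions). It was also lost when all libraries were thinned to the smallest (adjusted p = 0.058). The sum over the 3 Kdm4b peaks was also higher with DFMO, at 193, 218 and 216 CPM against 154, 156 and 166 CPM (log2 0.33 ± 0.11, edgeR adjusted p = 0.031).

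No other peak passed the adjusted threshold in Th17n cells. All 3 Kdm1a peaks had positive log2 values, between 0.28 and 0.38, and none passed. Among the 14 Kdm2b peaks 8 were above 0 and 6 below, between -0.81 and 0.52, and none passed without the animal as a block. With animal as a replicate block, Kdm2b peak 14 was past the threshold as well, so that 2 member peaks were higher instead of 1.

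The same treatment was then compared in iTreg cells. There the Kdm2b locus became less open with DFMO at 5 of its 14 peaks, among them those at its internal and its outermost start, while a region beyond Kdm5a and the Kdm4c promoter became more open. In all 2 of the 36 demethylase peaks rose, 5 fell and 29 did not pass, so 19.4% of the members passed where 8.56% of all 43726 peaks did (3.83% higher and 4.73% lower). All 5 that fell were Kdm2b peaks, which lie along 1 gene and are not independent of each other. The median log2 fold change was -0.11 over the 36 peaks and -0.01 over all peaks.

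Neither H3K27 demethylase had a peak past the threshold in iTreg cells. Kdm6a peak 1 had 155, 133 and 164 CPM with DFMO, against 125, 128 and 116 CPM with vehicle. The DFMO libraries were all higher, at log2 0.32 ± 0.12 (edgeR adjusted p = 0.075). Kdm6b peak 2 had 259, 286 and 277 CPM with DFMO, against 240.4, 272 and 275 CPM with vehicle, and the groups overlapped (log2 0.08 ± 0.10, edgeR adjusted p = 0.69).

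Among genes of the H3K4 demethylases, Kdm5a peak 2 (chr6:120453053-120453547) lay 8479 bp outside the gene model. It had 9.39, 16.1 and 22.3 CPM in iTreg cells with DFMO, against 6.14, 5.80 and 6.87 CPM with vehicle. The groups did not overlap, and the DFMO libraries were far more spread than the vehicle ones (15.9 ± 6.44 and 6.27 ± 0.547 CPM, SD, n = 3 each). It rose by log2 1.42 ± 0.29 (edgeR adjusted p = 0.00094), a call lost only without iTreg DFMO animal 3 (adjusted p = 0.065; log2 1.05 to 1.67 over all single omissions). At the same gene, peak 1 at its end showed 60.5, 51.2 and 57.1 CPM with DFMO, against 54.2, 68.1 and 55.6 CPM with vehicle, and did not pass (log2 -0.07 ± 0.17, edgeR adjusted p = 0.86). Kdm1a had log2 values of -0.53 to -0.09 at its 3 peaks and Kdm5b -0.14 at its single peak, none past the threshold.

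Kdm4c peak 2 (chr4:74251302-74252719), which holds the Kdm4c start, had 101, 96.8 and 85.3 CPM in iTreg cells with DFMO, against 80.3, 76.5 and 58.8 CPM with vehicle. All DFMO libraries were higher, at log2 0.42 ± 0.14 (edgeR adjusted p = 0.046). This call sat at the threshold: it was lost in 11 of 12 omissions of a single library, all but that of iTreg vehicle animal 1 (adjusted p up to 0.327), with library totals in place of TMM, without the count filter and in a fit of the 2 iTreg groups alone. In Th17n cells the same peak had log2 0.30 ± 0.14 (edgeR adjusted p = 0.19), and the 2 DFMO effects at it differed by log2 -0.12 ± 0.20 (adjusted p = 0.84).

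The 5 Kdm2b peaks that fell in iTreg cells lay inside the gene and at or just beyond its outer start. Peak 3 (chr5:122899612-122900844), which holds the internal CpG-rich start, had 55.2, 53.6 and 43.7 CPM with DFMO, against 77.2, 73.7 and 79.9 CPM with vehicle. Peak 12 (chr5:122989137-122989588), 38 bp from the outer start, had 8.22, 15.2 and 9.38 CPM against 21.0, 24.9 and 27.7 CPM. In both, every DFMO library was below every vehicle library, by log2 -0.59 ± 0.15 at peak 3 (edgeR adjusted p = 0.0090) and -1.16 ± 0.32 at peak 12 (adjusted p = 0.014). Peak 11, at another start close to the outer one, did not pass (log2 0.18 ± 0.46, edgeR adjusted p = 0.87).

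The other 3 Kdm2b peaks behaved alike. Peak 7 (chr5:122951300-122952585, inside the gene) had 21.7, 30.8 and 28.4 CPM in iTreg cells with DFMO, against 36.8, 43.4 and 55.8 CPM with vehicle (log2 -0.73 ± 0.20, edgeR adjusted p = 0.016). Peak 9 (chr5:122986242-122986432) had 3.52, 9.01 and 4.98 CPM against 9.72, 13.5 and 16.4 CPM (log2 -1.18 ± 0.39, edgeR adjusted p = 0.0496). Peak 13 (chr5:122990534-122990872), 1264 bp outside the gene model, had 7.04, 9.01 and 10.8 CPM against 14.3, 18.5 and 30.9 CPM (log2 -1.22 ± 0.32, edgeR adjusted p = 0.011). No DFMO library reached the lowest vehicle library at any of these peaks. Peak 14 (chr5:122994403-122995200), 5133 bp outside, had 39.9, 51.2 and 48.6 CPM with DFMO, against 58.3, 69.0 and 73.2 CPM with vehicle, again without overlap, but did not pass (log2 -0.50 ± 0.18, edgeR adjusted p = 0.063).

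Summed over all 14 peaks, Kdm2b had 251, 295 and 239 CPM in iTreg cells with DFMO, against 316, 368 and 415 CPM with vehicle. The DFMO libraries were all lower, with a log2 fold change of -0.51 ± 0.10 (edgeR adjusted p = 0.00045 over 14850 genes). This call held in all 10 alternatives and in all 12 single omissions, between -0.62 and -0.41 in the omissions. Peak by peak it was less firm: peak 9 lost its call with the replicate block, in 5 of the other 6 settings (all but library totals; adjusted p up to 0.310) and in 10 of 12 omissions (all but iTreg DFMO animal 2 and iTreg vehicle animal 1). Peak 3 lost it without iTreg DFMO animal 3 or vehicle animal 3 (adjusted p up to 0.107), peak 7 without DFMO animal 1 or 3 or vehicle animal 3 (up to 0.182), peak 12 without DFMO animal 1 or 3 or vehicle animal 2 or 3 (up to 0.101), and peak 13 without DFMO animal 1 or vehicle animal 3 (up to 0.205). With libraries thinned to the smallest, only the call of peak 3 was kept among the 5. The other 9 Kdm2b peaks did not pass, and 5 of the 14 had a log2 value above 0.

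**Figure D2:**
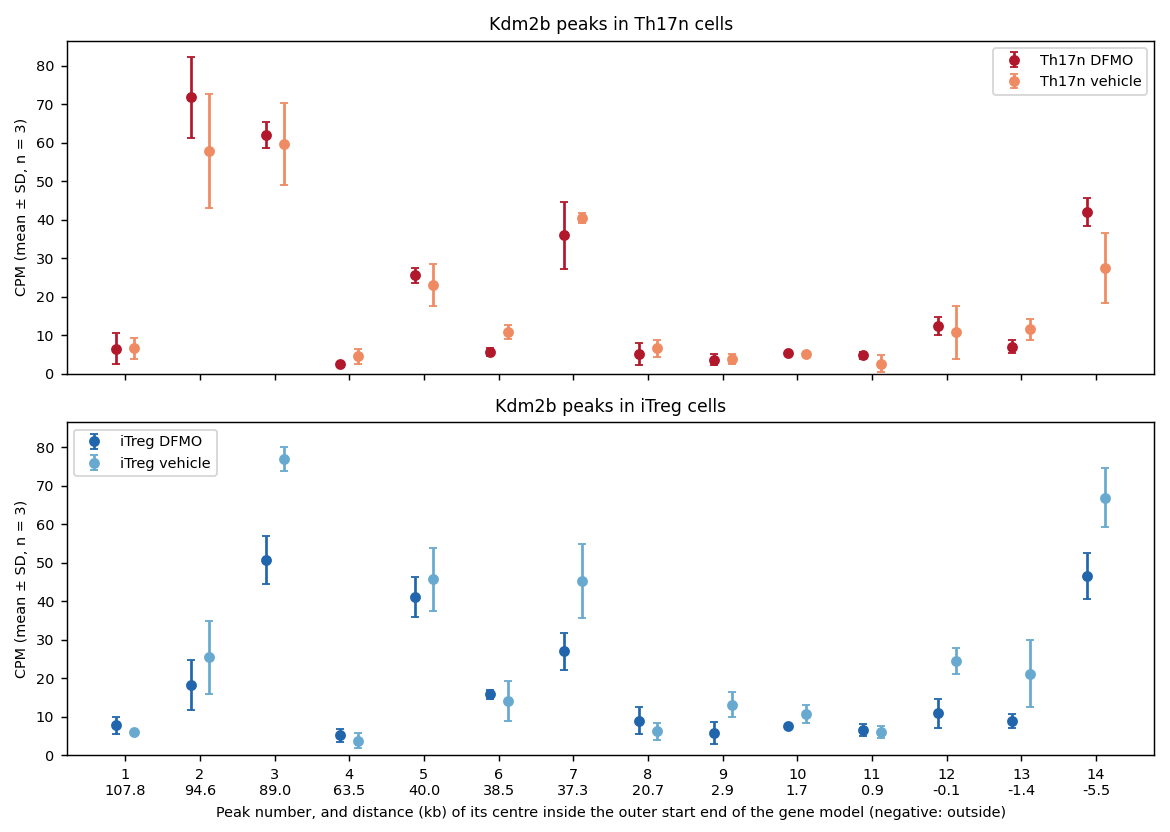
Mean CPM ± SD (3 animals) of the 14 Kdm2b peaks in order along the gene, with DFMO and with vehicle, for Th17n cells (upper panel) and iTreg cells (lower panel); the second line of the axis labels gives the distance in kb of each peak's centre from the outer start end of the gene model. In iTreg cells peaks 3, 7, 9, 12 and 13 are lower with DFMO, and in Th17n cells peak 2 stands at 71.8 CPM with DFMO and 57.8 CPM with vehicle, against 18.3 and 25.5 CPM in iTreg cells.

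In Th17n cells, none of these 5 Kdm2b peaks passed. Peak 3 had 63.7, 64.0 and 58.0 CPM with DFMO, against 49.0, 70.2 and 59.9 CPM with vehicle (log2 0.03 ± 0.15, edgeR adjusted p = 0.93). Peak 12 had 10.1, 14.7 and 12.4 CPM against 2.94, 13.5 and 15.9 CPM (log2 0.01 ± 0.34, edgeR adjusted p = 0.99). The groups overlapped at both. Peak 13 had 8.12, 5.19 and 7.81 CPM with DFMO, all below the 14.7, 10.0 and 9.98 CPM with vehicle (log2 -0.60 ± 0.36, edgeR adjusted p = 0.33). Peak 14 went the other way there, with 40.3, 46.3 and 39.7 CPM with DFMO, against 18.6, 36.6 and 27.0 CPM with vehicle (log2 0.52 ± 0.19, edgeR adjusted p = 0.077; adjusted p = 0.034 with the replicate block).

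**Figure D3:**
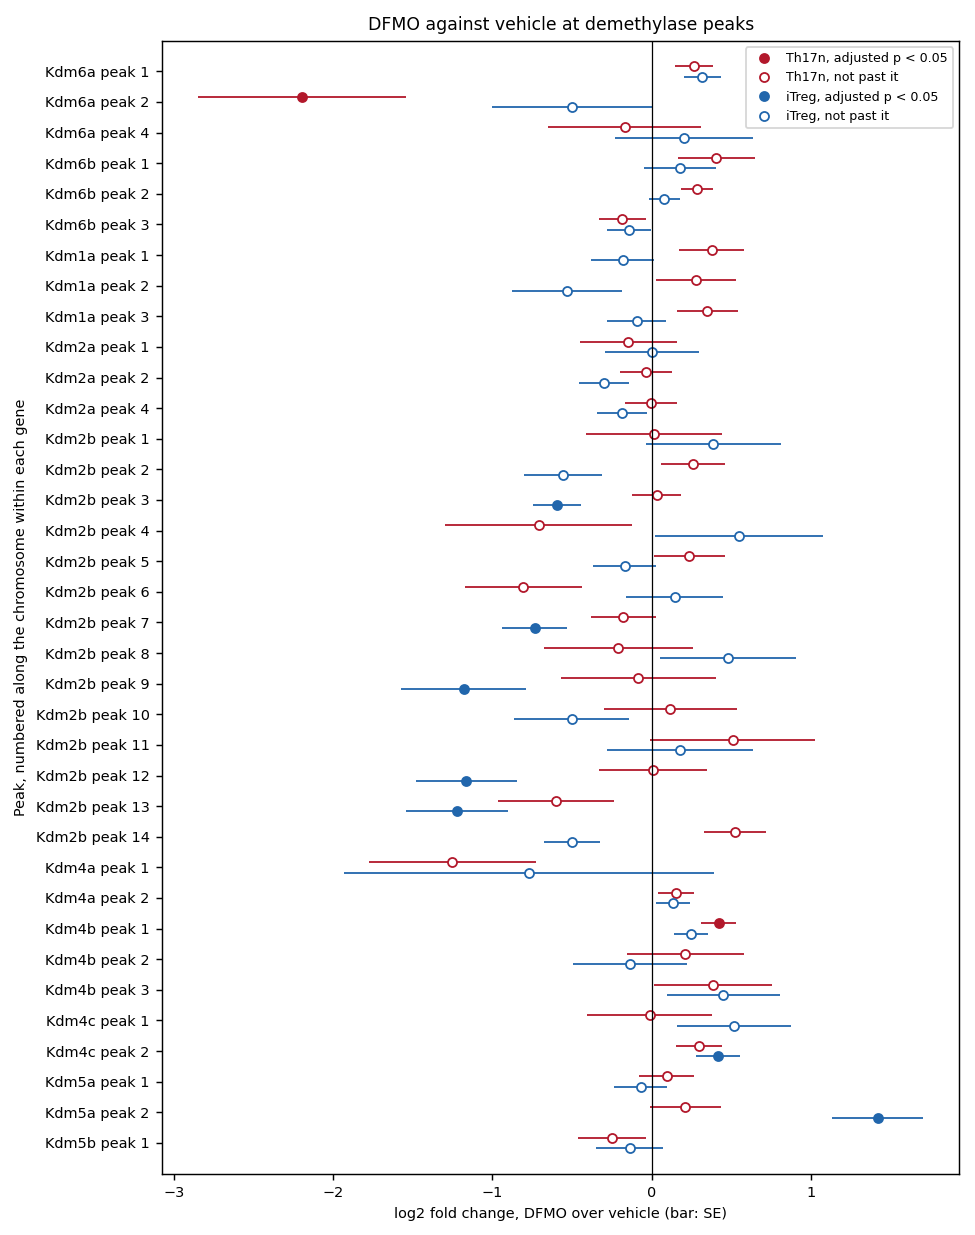
log2 fold change of DFMO over vehicle (horizontal axis, bar: SE) at each of the 36 demethylase peaks tested (rows), in Th17n cells (red) and in iTreg cells (blue); filled points passed an edgeR adjusted p of 0.05. The filled blue points left of 0 are the 5 Kdm2b peaks, and the filled blue point farthest to the right is Kdm5a peak 2 at 1.42.

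Whether the DFMO effect differed between the lineages was tested as an interaction, the effect in Th17n cells minus that in iTreg cells. Of the 36 peaks 1 was higher and none lower by edgeR at an adjusted p of 0.05, where 1.31% of all peaks passed (0.835% higher and 0.478% lower). It was Kdm2b peak 14, with a difference of log2 1.03 ± 0.26 (adjusted p = 0.030). The Kdm2b sum differed by log2 0.54 ± 0.14 (adjusted p = 0.038, where 1.87% of all gene sums passed, 0.754% higher and 1.12% lower), from effects of 0.02 ± 0.10 in Th17n cells and -0.51 ± 0.10 in iTreg cells. Both calls were lost in 9 of 12 single omissions, all but those of Th17n vehicle animal 2, iTreg DFMO animal 2 and iTreg vehicle animal 1 (adjusted p up to 0.146 and 0.138), and with libraries thinned to the smallest. The sum also lost it with DESeq2 and when only peaks inside the gene model or within 1 kb were summed. For Kdm2b peaks 3 and 12 the difference did not pass (log2 0.63 ± 0.22, adjusted p = 0.14, and 1.17 ± 0.46, adjusted p = 0.21), and neither did Kdm5a peak 2 (-1.21 ± 0.36, adjusted p = 0.078).

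Th17n and iTreg cells were compared within each treatment. With DFMO, 4 of the 36 demethylase peaks were higher in Th17n and 7 lower, where 37.2% of all peaks passed (22.6% higher and 14.7% lower). With vehicle, 4 were higher and 15 lower, where 44.6% of all peaks passed (25.2% higher and 19.3% lower). The share called was 30.6% with DFMO and 52.8% with vehicle, not far from the background, while the direction leaned to lower: the median log2 fold change over the 36 peaks was -0.22 with DFMO and -0.37 with vehicle, against -0.00 and -0.07 over all peaks. Kdm2b held 14 of the 36 peaks, with 2 of the 7 lower calls with DFMO and 7 of the 15 with vehicle. Its peaks lie along 1 gene and are not independent, and the lean was not tested. The 4 higher peaks were the same in both treatments: Kdm1a peak 2, Kdm2b peak 2, Kdm4a peak 1 and Kdm5a peak 2. Of these, Kdm4a peak 1 passed the count filter only through its Th17n libraries, the group where it was called higher. These lineage comparisons use the same libraries as the DFMO comparisons above and are not independent of them. With all libraries thinned to the smallest, 2 of the 7 lower calls with DFMO (Kdm6b peak 3, Kdm2b peak 6) and 7 of the 15 with vehicle (Kdm6b peak 3, Kdm1a peak 1, Kdm2b peaks 5, 9, 12 and 14, Kdm4b peak 1) were kept. Of the 4 higher peaks, Kdm4a peak 1 had too few counts to be tested then, and the other 3 were kept.

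Of the H3K27 demethylase genes, all 3 Kdm6b peaks were lower in Th17n cells with vehicle and 1 with DFMO, and 2 Kdm6a peaks were lower with DFMO and none with vehicle. With vehicle, Kdm6b peak 2 had 209, 230.0 and 199 CPM in Th17n cells, against 240.4, 272 and 275 CPM in iTreg cells. Every Th17n library was lower, at log2 -0.37 ± 0.10 (edgeR adjusted p = 0.0018; 0.060 without Th17n vehicle animal 3). With DFMO the same peak had log2 -0.17 ± 0.10 and overlapping groups (edgeR adjusted p = 0.18).

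Kdm6b peak 3 (chr11:69418009-69419409, at an end of the gene model) had 55.2, 54.5 and 44.3 CPM in Th17n cells with DFMO, against 69.8, 87.3 and 78.0 CPM in iTreg cells with DFMO. With vehicle it had 56.8, 63.3 and 57.8 CPM in Th17n cells, against 90.0, 88.8 and 85.5 CPM in iTreg cells. The lineages did not overlap under either treatment, at log2 -0.66 ± 0.15 (edgeR adjusted p = 0.00038) and -0.62 ± 0.14 (adjusted p = 0.00028), and both calls held in every single omission. Kdm6b peak 1 (chr11:69401173-69401708) fell to 20.5 ± 5.37 CPM in Th17n cells with vehicle, against 29.6 ± 6.48 CPM in iTreg cells (log2 -0.60 ± 0.23, edgeR adjusted p = 0.033). Its groups overlapped, and that call was lost without Th17n DFMO animal 1, Th17n vehicle animal 3 or iTreg vehicle animal 1 or 3 (adjusted p up to 0.328), and also with RLE, library totals, thinning and DESeq2 (up to 0.172).

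Kdm6a peak 1 was lower in Th17n cells with DFMO, by log2 -0.31 ± 0.12 (edgeR adjusted p = 0.034), and its groups overlapped at 134 and 133 CPM. That call was lost without Th17n DFMO animal 1 or 2 or iTreg DFMO animal 3 (adjusted p up to 0.150), and with library totals, thinning or the 2 groups alone (up to 0.312). Kdm6a peak 2 was lower as well (0.902 ± 1.21 CPM in Th17n, against 4.57 ± 1.496 CPM in iTreg; log2 -2.08 ± 0.68, edgeR adjusted p = 0.013), a call lost without Th17n DFMO animal 2 or iTreg DFMO animal 3 (adjusted p up to 0.069). With vehicle the log2 values were -0.26 ± 0.12 and -0.39 ± 0.48, and neither passed (edgeR adjusted p = 0.069 and 0.54).

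Within genes of the H3K4 demethylases, single regions were strongly more open in Th17n cells. Kdm1a peak 2 (chr4:136598309-136598859, inside the gene) had 31.2, 32.9 and 33.9 CPM in Th17n cells with DFMO, against 3.52, 5.69 and 5.57 CPM in iTreg cells with DFMO. With vehicle it had 26.4, 29.7 and 25.0 CPM in Th17n cells, against 6.14, 9.03 and 6.67 CPM in iTreg cells. The lineages were far apart under both treatments, at log2 2.61 ± 0.31 (edgeR adjusted p = 4.5e-09) and 1.80 ± 0.28 (adjusted p = 6.4e-07).

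The Kdm1a promoter did not share that direction. Peak 3 (chr4:136602012-136602946) had 22.5, 37.3 and 35.8 CPM in Th17n cells with vehicle, against 49.6, 47.5 and 49.5 CPM in iTreg cells, all Th17n libraries being lower (log2 -0.60 ± 0.18, edgeR adjusted p = 0.0070; 0.063 without Th17n vehicle animal 1). With DFMO its groups overlapped (log2 -0.15 ± 0.19, edgeR adjusted p = 0.56). Kdm1a peak 1 (chr4:136569959-136570625) had 28.4, 29.6 and 24.7 CPM in Th17n cells with vehicle, against 35.8, 35.5 and 40.4 CPM in iTreg cells, again all lower (log2 -0.51 ± 0.20, edgeR adjusted p = 0.033). Its call was lost in 7 of 12 single omissions, those of Th17n DFMO animal 1 or 2, any Th17n vehicle animal and iTreg vehicle animal 2 or 3 (adjusted p up to 0.211), and with RLE, library totals and DESeq2 (up to 0.068).

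Kdm5a peak 2 showed the lowest adjusted p among the members in the vehicle comparison. It had 45.5, 45.0 and 41.7 CPM in Th17n cells with DFMO, against 9.39, 16.1 and 22.3 CPM in iTreg cells with DFMO. With vehicle it had 36.2, 41.6 and 37.3 CPM in Th17n cells, against 6.14, 5.80 and 6.87 CPM in iTreg cells. Every iTreg library stayed below the Th17n range, at log2 1.34 ± 0.24 with DFMO (edgeR adjusted p = 2.4e-05) and 2.54 ± 0.26 with vehicle (adjusted p = 6.1e-11). The iTreg group with DFMO thus lay between the Th17n libraries and the iTreg libraries with vehicle. At Kdm5b peak 1 (chr1:134560182-134561225) the lineages overlapped under both treatments (log2 -0.11 ± 0.22 and -0.00 ± 0.21), and all 12 libraries lay between 24.4 and 35.3 CPM.

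For the CpG-island binding pair, Kdm2b had 14 peaks tested and Kdm2a 3. For Kdm2b with vehicle, 1 peak was higher in Th17n cells and 7 were lower, and with DFMO 1 was higher and 2 were lower. Peak 2 (chr5:122894130-122895298, inside the gene) was the higher one, with 60.1, 74.4 and 80.7 CPM in Th17n cells with DFMO, against 16.4, 25.6 and 12.9 CPM in iTreg cells. With vehicle it had 44.1, 73.6 and 55.8 CPM in Th17n cells, against 15.3, 34.2 and 26.9 CPM in iTreg cells. The lineages did not overlap in either case (log2 1.92 ± 0.24, edgeR adjusted p = 8.3e-09, and 1.11 ± 0.21, adjusted p = 2.7e-05).

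Among the lower Kdm2b peaks, peak 5 (chr5:122948999-122949516) passed under both treatments, with 25.6 ± 1.92 CPM in Th17n cells against 41.2 ± 5.24 CPM in iTreg cells with DFMO, and 23.1 ± 5.39 against 45.7 ± 8.19 CPM with vehicle. Its groups did not overlap (log2 -0.73 ± 0.21, edgeR adjusted p = 0.0061, and -1.13 ± 0.21, adjusted p = 1.3e-05). Peak 6 (chr5:122950687-122950903) passed with DFMO, at 6.82, 5.62 and 4.56 CPM in Th17n cells against 15.8, 17.1 and 14.7 CPM in iTreg cells (log2 -1.49 ± 0.36, edgeR adjusted p = 0.00079). With vehicle, peak 14 had 18.6, 36.6 and 27.0 CPM in Th17n cells, against 58.3, 69.0 and 73.2 CPM in iTreg cells (log2 -1.25 ± 0.18, edgeR adjusted p = 2.0e-07). The other 5 lower peaks with vehicle were 3, 9, 10, 12 and 13, at log2 -0.38, -1.84, -1.17, -1.07 and -1.07. Their edgeR adjusted p values ran between 0.00021 and 0.029. With DFMO none of these 5 passed, and whether the lineage difference depended on the drug is the interaction test given above. Single omissions ended the calls of peak 3 (Th17n DFMO animal 1 or 2, Th17n vehicle animal 1 or 3, iTreg vehicle animal 3; adjusted p up to 0.203), peak 10 (Th17n vehicle animal 2 or 3, iTreg vehicle animal 3; up to 0.075) and peak 13 (iTreg vehicle animal 3; 0.122), and the groups of peak 13 overlapped. Peak 3 also lost its call with RLE, library totals, thinning and DESeq2 (adjusted p up to 0.088).

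Kdm2a had 1 call, at peak 2 (chr19:4333578-4334322), with 55.8, 54.2 and 53.7 CPM in Th17n cells with vehicle, against 77.7, 69.4 and 68.7 CPM in iTreg cells. All Th17n libraries were lower, by log2 -0.46 ± 0.16 (edgeR adjusted p = 0.013). It was lost without Th17n vehicle animal 2 or 3 (adjusted p up to 0.085). The Kdm2a lead peak 4 (chr19:4396627-4398374) overlapped in all 4 comparisons and ran between 54.5 and 107 CPM.

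For the H3K9 and H3K36 demethylases, the lead peaks of Kdm4a and Kdm4b, each at an end of the gene model, were lower in Th17n cells under both treatments. Kdm4a peak 2 (chr4:118179472-118180486) had 178, 169.6 and 155 CPM in Th17n cells with DFMO, against 244, 185 and 207 CPM in iTreg cells. With vehicle it had 140.1, 165 and 152 CPM in Th17n cells, against 198, 185 and 203 CPM in iTreg cells. No Th17n library reached the iTreg range (log2 -0.39 ± 0.11, edgeR adjusted p = 0.0041, and -0.41 ± 0.11, adjusted p = 0.0016). Kdm4b peak 1 had 172, 202 and 197 CPM in Th17n cells with DFMO, against 208, 264 and 219 CPM in iTreg cells. With vehicle its values were 142, 140.4 and 150.3 CPM, against 224, 197 and 173 CPM. It fell by log2 0.34 ± 0.11 with DFMO (edgeR adjusted p = 0.012) and by 0.51 ± 0.11 with vehicle (adjusted p = 0.00015), the groups not overlapping; the first call was lost without Th17n DFMO animal 1 or iTreg DFMO animal 2 (adjusted p up to 0.109).

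Kdm4a peak 1 (chr4:118159606-118159922, inside the gene) was nearly closed in iTreg cells. Its raw counts were 7, 7 and 12 in Th17n cells with DFMO, against 1, 0 and 1 in iTreg cells with DFMO, and 7, 68 and 37 in Th17n cells with vehicle, against 0, 3 and 3 in iTreg cells with vehicle. Scaled to library totals and summed over animals, the ratio of Th17n to iTreg was 13.6 with DFMO (exact 95% interval 3.40 to 118) and 19.7 with vehicle (8.79 to 55.0), intervals that cover counting error only. EdgeR passed both (adjusted p = 0.0014 and 1.1e-06). The peak passed the count filter through its Th17n libraries alone, since no iTreg library was above 0.645 CPM. These 2 calls are thus not independent of the filter. The ratio of DFMO to vehicle in iTreg cells, 0.533 (0.0526 to 2.98), rested on 2 and 6 counts and gives no direction. Kdm4c had no lineage call, with log2 values between -0.65 and -0.08.

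**Figure D4:**
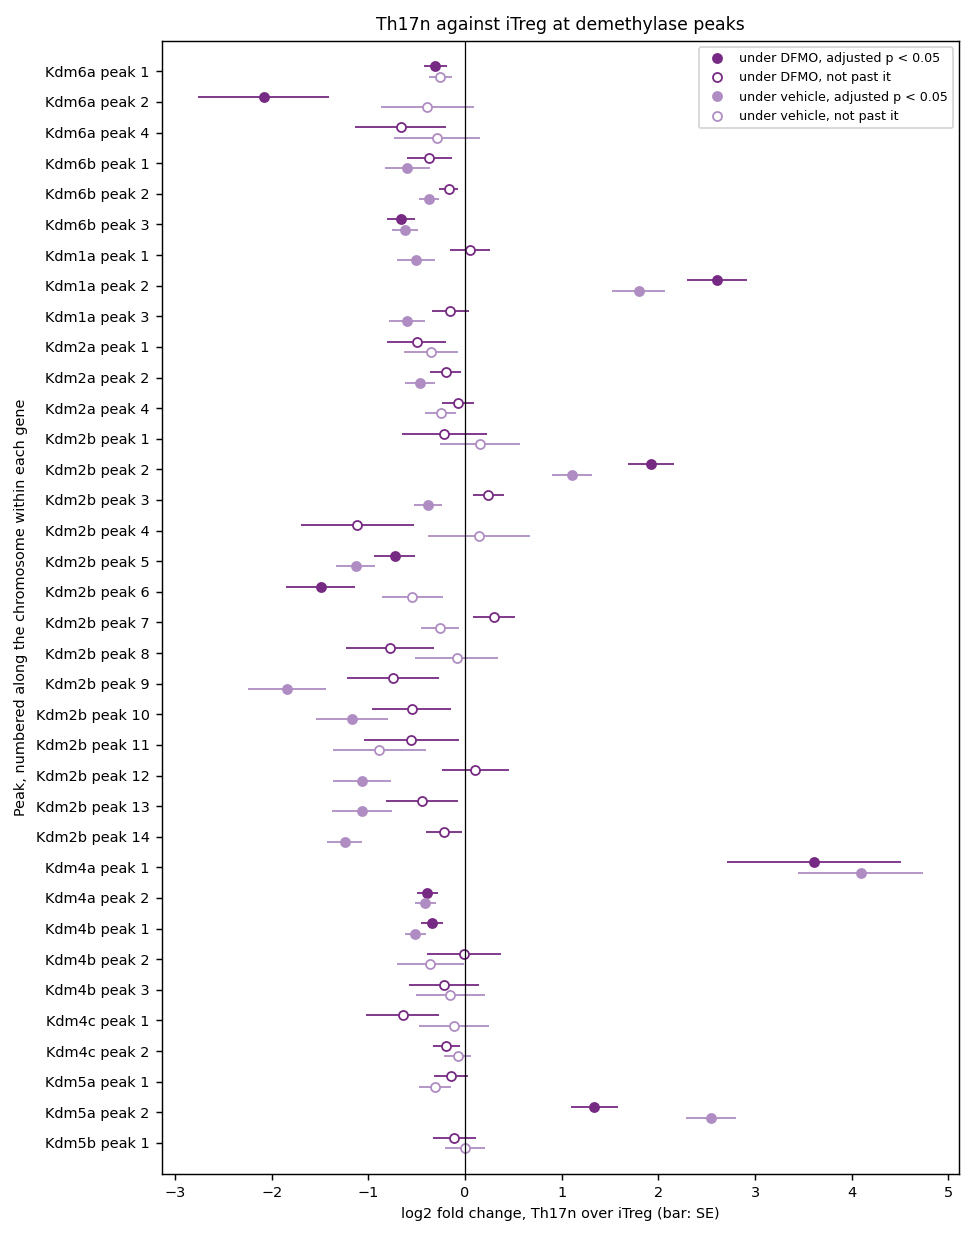
log2 fold change of Th17n over iTreg (horizontal axis, bar: SE) at each of the 36 demethylase peaks tested (rows), with DFMO (dark purple) and with vehicle (light purple); filled points passed an edgeR adjusted p of 0.05. The 4 peaks filled to the right of 0 under both treatments are Kdm1a peak 2, Kdm2b peak 2, Kdm4a peak 1 and Kdm5a peak 2, and filled points to the left are 7 with DFMO and 15 with vehicle.

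Summing all peaks of a gene gave 1 value per gene and library. The highest of the 4 group means was iTreg with DFMO for 5 genes, Th17n with DFMO for 2, iTreg with vehicle for 2 and Th17n with vehicle for 1, and the lowest was Th17n with vehicle for 5. This order uses CPM by library totals, and the same counts over all genes were not made. TMM factors of the sums were 1.02 to 1.04 in iTreg with DFMO and 0.947 to 0.974 in Th17n with vehicle. Scaling by them lowers the first group relative to the second. Kdm4c, lowest in Th17n with vehicle by CPM, had log2 0.09 ± 0.13 there over iTreg with vehicle (edgeR adjusted p = 0.65). Kdm6b, for example, averaged 332 ± 17.4 CPM in Th17n with DFMO, 292 ± 22.4 in Th17n with vehicle, 385 ± 26.3 in iTreg with DFMO and 380.1 ± 11.3 in iTreg with vehicle (SD, n = 3 each), and within a lineage the 2 treatments did not differ beyond the test (log2 0.13 ± 0.09 in Th17n and 0.00 ± 0.09 in iTreg; edgeR adjusted p = 0.40 and 0.996). Against the background of 11.1% of 14850 genes (4.03% higher and 7.04% lower), 1 of the 10 sums passed with DFMO in Th17n cells (Kdm4b, higher), a call lost with the same omissions as that of its peak 1. Against 12.3% (5.47% higher and 6.81% lower), 2 passed in iTreg cells: Kdm2b was lower and Kdm4c higher, at 116, 104 and 98.2 CPM with DFMO against 91.0, 83.6 and 66.3 CPM with vehicle (log2 0.39 ± 0.13, edgeR adjusted p = 0.032). That Kdm4c call was lost without iTreg DFMO animal 1 or 3 or iTreg vehicle animal 2 or 3 (adjusted p up to 0.280), in the fit of the 2 groups alone and without its outside peak.

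Between the lineages, the sums of Kdm1a and Kdm5a were higher in Th17n cells with DFMO (2 of 10 genes, where 24.7% of all genes passed, 15.3% higher and 9.4% lower). Kdm1a had 112, 106 and 113 CPM in Th17n cells, against 89.8, 87.8 and 72.7 CPM in iTreg cells (log2 0.47 ± 0.13, edgeR adjusted p = 0.0035; 0.053 without iTreg DFMO animal 3). With vehicle, 4 of 10 passed where 30.9% of all genes did (18.6% higher and 12.3% lower): Kdm5a was higher, and Kdm6b, Kdm2b and Kdm4b were lower in Th17n cells. Kdm5a had 79.3, 91.9 and 92.5 CPM in Th17n cells with vehicle, against 60.3, 73.9 and 62.5 CPM in iTreg cells (log2 0.53 ± 0.13, edgeR adjusted p = 0.0014), and this rested on its outside peak 2: with peak 1 alone it was log2 -0.0933 (adjusted p = 0.72). Sums and peaks were scaled by separate TMM factors, so their log2 values cannot be set side by side. In the fit of peaks, the same peak 1 had log2 -0.31 ± 0.17 (edgeR adjusted p = 0.13). With DFMO the Kdm5a sum had log2 0.48 ± 0.14 (edgeR adjusted p = 0.0071), a call lost without Th17n DFMO animal 1 (0.121) and with peak 1 alone. The lower sums were Kdm6b at log2 -0.28 ± 0.09 (edgeR adjusted p = 0.013), Kdm2b at -0.33 ± 0.10 (adjusted p = 0.0096) and Kdm4b at -0.33 ± 0.10 (adjusted p = 0.011). They were lost without Th17n vehicle animal 3 (Kdm6b, 0.108), without Th17n vehicle animal 1 or 3 or iTreg vehicle animal 3 (Kdm2b, up to 0.110) and without iTreg vehicle animal 1 (Kdm4b, 0.058), and that of Kdm2b also with its inside and near peaks alone (0.503).

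**Figure D5:**
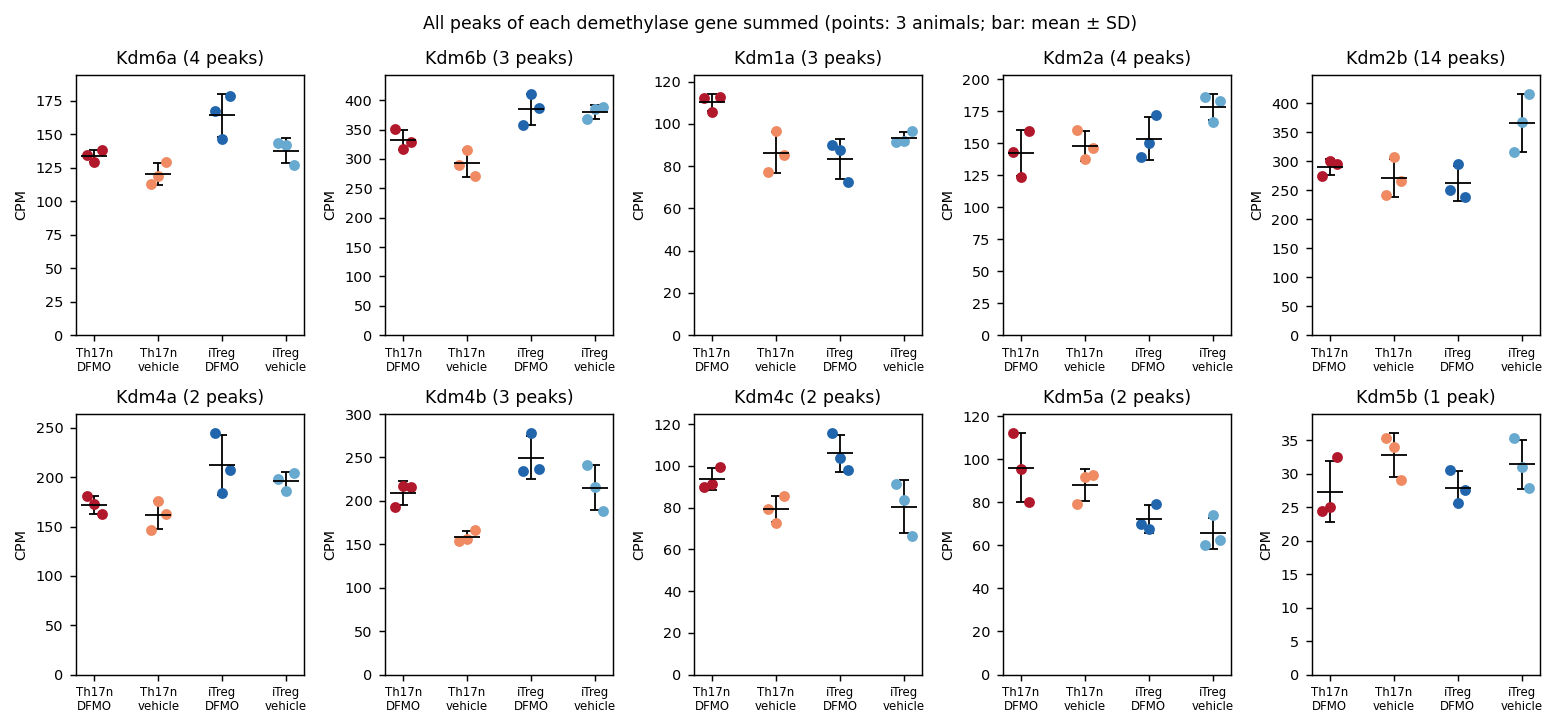
CPM summed over all peaks of each of the 10 genes in Th17n with DFMO, Th17n with vehicle, iTreg with DFMO and iTreg with vehicle, 1 point per animal, with the mean and SD of 3 animals as the bar. Kdm2b in iTreg cells lies at 239 to 295 CPM with DFMO, below the 316 to 415 CPM with vehicle, and Kdm4b in Th17n cells at 193 to 218 CPM with DFMO, above 154 to 166 CPM with vehicle.

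Related genes were read, in lists, against the same background. Of 46 tested peaks at 14 other lysine demethylase genes, DFMO raised 2 and lowered 4 in Th17n cells (13.0%, beside 8.79% of all peaks) and raised 2 and lowered 3 in iTreg cells (10.9%, beside 8.56%). By lineage, 14 of them were higher in Th17n cells and 7 lower with DFMO, and 15 and 6 with vehicle. Those are 45.7% each, beside 37.2% and 44.6% of all peaks. Their median log2 fold changes of Th17n over iTreg were 0.28 and 0.14, so they did not share the members' lean to lower. A peak inside Jmjd1c, related to the H3K9 demethylases, fell to 9.57 ± 1.83 CPM in Th17n cells with DFMO, against 40.0 ± 9.07 CPM with vehicle (log2 -2.03 ± 0.31, edgeR adjusted p = 2.1e-05). Another peak inside Jmjd1c rose there, to 26.9 ± 3.55 CPM against 14.6 ± 5.20 CPM (log2 0.80 ± 0.26, edgeR adjusted p = 0.038). The call of this rise was kept in 6 of 12 omissions and lost without the count filter and with DESeq2. A peak inside Kdm7a, an H3K9 and H3K27 demethylase, moved in opposite directions: it had 32.3 ± 6.999 CPM in Th17n cells with DFMO against 18.4 ± 6.98 CPM with vehicle, and 2.20 ± 1.20 CPM in iTreg cells with DFMO against 7.38 ± 0.701 CPM with vehicle. Its effects were log2 0.95 ± 0.29 (edgeR adjusted p = 0.032) and -1.54 ± 0.43 (adjusted p = 0.018), and their difference was 2.49 ± 0.52 (adjusted p = 0.0066). That was the 1 interaction call among the 46 peaks (2.17%, beside 1.31% of all peaks). The Th17n call was lost without DFMO animal 1 or 3 or vehicle animal 2 or 3 (adjusted p up to 0.222), the iTreg one without DFMO animal 1 (0.081), and the difference held in all 12 omissions. Thinning to the smallest library ended all 3 calls (adjusted p = 0.067, 0.126 and 0.060), and the fit of the 2 groups alone ended the iTreg one. The Kdm3a end peak rose to 160.3 ± 14.9 CPM in iTreg cells with DFMO, against 114 ± 6.75 CPM with vehicle (log2 0.52 ± 0.12, edgeR adjusted p = 0.0056; 0.081 without iTreg DFMO animal 3 and 0.114 with thinning).

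Of 95 peaks at 24 partner genes (CoREST, MLL3/4 and PRC1.1 complexes), DFMO raised 3 and lowered 2 in Th17n cells (5.26%, beside 8.79% of all peaks). In iTreg cells it raised 3 and lowered 4 (7.37%, beside 8.56%). Between the lineages, 24 were higher in Th17n cells and 12 lower with DFMO, and 25 and 19 with vehicle. Those are 37.9% and 46.3%, beside 37.2% and 44.6% of all peaks. One peak inside Phf21a, a CoREST subunit that works with Kdm1a, rose in both lineages: to 48.8 ± 9.004 CPM in Th17n cells with DFMO, against 12.9 ± 3.24 CPM with vehicle, and to 40.6 ± 8.33 CPM in iTreg cells with DFMO, against 12.9 ± 1.26 CPM with vehicle. The log2 values were 1.88 ± 0.24 (edgeR adjusted p = 8.3e-07) and 1.69 ± 0.24 (adjusted p = 5.2e-06).

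Of 83 peaks at 23 methyltransferase genes, the enzymes that write the marks, DFMO raised 6 and lowered 6 in Th17n cells (14.5%, beside 8.79% of all peaks). In iTreg cells it raised 1 and lowered none (1.20%, beside 8.56%). Between the lineages, 23 were higher in Th17n cells and 11 lower with DFMO, and 22 and 21 with vehicle. Those are 41.0% and 51.8%, beside 37.2% and 44.6% of all peaks. In Th17n cells with DFMO, a peak inside Smyd2 fell to 5.70 ± 2.69 CPM, against 32.3 ± 10.4 CPM with vehicle (log2 -2.33 ± 0.37, edgeR adjusted p = 3.1e-05). A peak inside Ezh2, the H3K27 methyltransferase of PRC2, fell to 9.10 ± 1.29 CPM, against 29.1 ± 8.17 CPM (log2 -1.63 ± 0.32, edgeR adjusted p = 0.00055). A peak inside Smyd3 rose to 42.1 ± 3.64 CPM, against 16.8 ± 3.95 CPM (log2 1.26 ± 0.21, edgeR adjusted p = 6.0e-05). The 1 peak raised in iTreg cells was another Ezh2 peak, outside the gene model and near the floor. It had 4.53 ± 1.06 CPM with DFMO, against 0.767 ± 0.679 CPM with vehicle (log2 2.27 ± 0.61, edgeR adjusted p = 0.013). Its call was lost without iTreg DFMO animal 3 or vehicle animal 3 (adjusted p up to 0.077). The DFMO effects differed between the lineages at the Smyd3 peak (log2 1.53 ± 0.28, edgeR adjusted p = 0.0018) and the Smyd2 peak (-2.77 ± 0.66, adjusted p = 0.020), the second being lost without iTreg DFMO animal 3 or vehicle animal 2 (up to 0.329). Of the 83 peaks these were 1 higher and 1 lower (2.41%, beside 1.31% of all peaks). Both were lost with thinning (adjusted p = 0.153 and 0.218).

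The last list held 48 peaks at 23 genes that supply or use 2-oxoglutarate, succinate, fumarate or FAD, the cofactors and inhibitors of these enzymes. DFMO raised none and lowered 1 in Th17n cells (2.08%, beside 8.79% of all peaks). In iTreg cells it raised 1 and lowered 1 (4.17%, beside 8.56%). The calls included a peak outside Got2 in Th17n cells (log2 -1.12 ± 0.36, edgeR adjusted p = 0.037) and a peak outside Sdhd in iTreg cells (0.66 ± 0.22, adjusted p = 0.049). The Got2 call was lost in 4 of 12 omissions and the Sdhd call in 10, among them that of DFMO animal 3 of the same lineage in each. Between the lineages, 12 of the 48 were lower in Th17n cells and 6 higher with DFMO, where 14.7% and 22.6% of all peaks were. With vehicle 15 were lower and 5 higher, where 19.3% and 25.2% of all peaks were. In all 37.5% and 41.7% of the list passed, beside 37.2% and 44.6% of all peaks.

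Across the 12 libraries, the peaks whose log2 CPM followed the Kdm6b lead peak most closely were at Wiz (Pearson r = 0.984), Tollip (0.971), Pkd1 (0.960), Tet2 (0.955) and Spag9 (0.953). For the Kdm6a lead peak they were at Smurf1 (r = 0.981), Abcf2 (0.964), Trak1 (0.963), Ube2d1 (0.958) and Ing3 (0.956). These are the top 5 of all tested peaks of other genes for each, the libraries share their 4 groups and their depth, and the values are descriptions with no test.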

How the data were processed

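The deposited table holds raw counts as whole numbers, for 48443 peaks (mouse build mm10) in 12 libraries sequenced as 37 bp read pairs. Trimmomatic, FastQC, Bowtie2 and MACS2 are named per the submitters' processing notes, while the sources used here do not give their versions, the counting tool or whether peaks were called on pooled libraries. Whether peak starts count from 0 or 1 is not stated, and starts are printed as deposited. All 12 count columns belonged to a library and 0 were unused.

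The demethylase genes and the gene lists were chosen with earlier results of these data known. Each peak went to the nearest protein-coding gene model (GRCm38.p6) within 100 kb, and to every gene where several were equally near (1655 peaks); 46089 peaks reached 15193 genes. This shows nearness and not which gene a region controls. CPM used library totals. Counts per peak, and counts summed per gene, were tested with edgeR 4.0.16 under R 4.3.3, keeping features by filterByExpr (minimum count 10), scaling by TMM and applying glmQLFit and glmQLFTest to 1 model of 4 group means without a block, with Benjamini-Hochberg adjustment at 0.05, so log2 values carry TMM scaling that CPM does not. The filter kept 43726 peaks and left 4717 untested, and 14850 gene sums were tested. Every gene of the family was named, with its lead peak and each peak past the threshold in any contrast; of each other list, up to 3 peaks with the smallest adjusted p per contrast were eligible.

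The labels name the animal of each library, so libraries of 1 animal are paired by design. With group means removed, r was -0.055 to 0.075 over the 18 such pairs, and the highest r of a library was with its own animal for 5 of 12. Replicate libraries had r of 0.883 to 0.960 (log2 CPM), and none was a copy of another (chi-square at least 1.99 per degree of freedom). The code was tested on simulated data. Alternatives were RLE size factors, library totals, no filter, a replicate block by animal, thinning to 1020937 counts, DESeq2 1.42.0, only the groups compared, gene sums within 20 kb, gene sums of peaks inside the model or within 1 kb of its ends, and each library left out. Leaving out peaks equally near to another gene was chosen after seeing the data. Single results for some genes of the lists are not reported here.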

Additional observations from a re-analysis of the deposited data

Results flagged for a closer look

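The effect of DFMO differed between the lineages past the threshold at 2 results, both at Kdm2b. Of all peaks 1.31% passed this test, and of all gene sums 1.87%. At Kdm2b peak 14 (start 122994403) the effect in Th17n cells minus that in iTreg cells was log2 1.03 ± 0.26 (edgeR adjusted p = 0.030). The 3 Th17n libraries with DFMO were all above those with vehicle (log2 0.52), and the 3 iTreg libraries with DFMO were all below theirs (log2 -0.50). For the sum of the 14 Kdm2b peaks the difference was log2 0.54 ± 0.14 (adjusted p = 0.038), with overlapping groups in Th17n cells and separate groups in iTreg cells. Peak 14 is part of that sum, so the 2 results are not independent. Each call was kept in only 3 of 12 single omissions and was lost with thinning. The sum also lost its call with DESeq2 and without peaks farther than 1 kb outside the gene model.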

How the results depend on the processing

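Of 50 member results past the threshold, the call was kept in 323 of 372 comparisons with other settings, lost in 48 and reversed in 1; with single libraries left out it was kept in 493 of 600 and lost in 107. The reversed one was Kdm5a, Th17n against iTreg with vehicle, whose sum changed to log2 -0.0933 (adjusted p = 0.72) once its outside peak was left out. Of 1597 comparisons for results not past the threshold, 80 changed sign (at most 0.225 on the log2 scale, adjusted p at least 0.368), and 11 such results passed in some setting.

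Counts of member calls changed as follows. Thinning all libraries to the smallest left 0 higher and 0 lower peaks in Th17n cells and 0 sums higher there (1 each before), 1 lower peak in iTreg cells (5 before), 2 and 7 lower peaks between lineages with DFMO and vehicle (7 and 15 before), 0 higher sums between lineages with DFMO (2 before) and 0 interaction calls. Thinning removes most counts, and the number of all peaks called fell too, to 867 higher and 986 lower in Th17n cells (1968 and 1875 before). With the replicate block, 2 peaks were higher in Th17n cells (1 before), peak 9 of Kdm2b lost its iTreg call, and no other member count moved by over 1.5 times. Fitting only the 2 groups compared gave 2 higher and 2 lower peaks in Th17n cells, 1 higher peak in iTreg cells and 0 higher sums there. Library totals gave 1 higher peak in iTreg cells, and 3 and 5 lower sums between lineages with DFMO and vehicle (0 and 3 before). No count filter gave 1 higher peak in iTreg cells. DESeq2 gave 0 higher interaction sums. Sums of peaks inside or within 1 kb gave 0 higher in iTreg cells, 0 higher between lineages with vehicle and 0 for the interaction. Without shared peaks, 2 sums were higher in iTreg cells, 2 lower between lineages with DFMO and 1 lower for the interaction. The cause was not tested beyond what each setting leaves out.

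Over single omissions, Th17n cells had 0 to 1 higher and 0 to 1 lower peaks, and 0 to 1 higher and 0 lower sums. In iTreg cells there were 0 to 2 higher and 0 to 7 lower peaks (0 without iTreg vehicle animal 3, 1 without iTreg DFMO animal 1 or 3, 3 without iTreg vehicle animal 2), and 0 to 1 higher and 1 lower sum. Between lineages with DFMO there were 4 higher and 5 to 8 lower peaks, and 1 to 3 higher and 0 to 1 lower sums. With vehicle there were 4 higher and 9 to 16 lower peaks (9 without Th17n vehicle animal 3, 10 without iTreg vehicle animal 3), and 1 higher and 1 to 3 lower sums. The interaction had 0 to 2 higher and 0 to 1 lower peaks, and 0 to 1 higher and 0 lower sums.

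Over all features, the share of calls that were higher changed by over 10 points with library totals for gene sums: 36.4% to 54.9% for DFMO in Th17n cells, 61.9% to 48.6% and 60.2% to 41.7% between lineages with DFMO and vehicle, and 40.3% to 54.1% for the interaction. For interaction peaks it was 63.6%, against 53.2% with RLE and 52.0% with DESeq2. Depth differed by 6.36 times between libraries, which limits peaks of a few CPM most.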
